A study of Mus musculus with 9 samples.

Results

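Rnf169, Gigyf2, Ttc39c and Tmem56 are the host genes of 4 of the most abundant circular RNAs (circRNAs, here also rings) in a set of mouse liver libraries. All rings listed under these 4 gene names were taken, 41 of the 11312 rings in the table: 7 of Rnf169, 18 of Gigyf2, 9 of Ttc39c and 7 of Tmem56. The hosts were selected on the mean level of their most abundant ring over the same libraries, so the high level is a property of the choice and no result. Livers came from wild-type C57 BL6 mice of 8 weeks and about 20 g. Controls received saline, the APAP group 500 mg/kg acetaminophen into the abdominal cavity, and the dmPGE2+APAP group 300 µg/kg dmPGE2, a stable analogue of prostaglandin E2, 1 hour before the same dose of acetaminophen. Tissue was taken 6 hours after acetaminophen in 3 libraries per group, and no digestion of linear RNA is named in the protocol. Animals are not numbered in the labels, and all p-values therefore rest on the spread between libraries, which may be technical. The 3 libraries used as controls carry a code that no label explains and were assigned to saline because the other 6 columns name the treated groups.

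A ring forms when the end of an exon is spliced back to the start of an exon upstream of it, and the reads that cross this back-splice junction count the ring. Rings have no free ends and are known for long lifetimes in cells, and several rings can form from 1 host gene by the use of different splice sites. Rnf169 encodes a ubiquitin-binding protein of the DNA double-strand break response that competes with 53BP1 at ubiquitinated histone H2A. Gigyf2 encodes a GYF domain protein that works with the cap-binding protein 4EHP in translational repression. Ttc39c encodes a tetratricopeptide repeat protein, and Tmem56, also named Tlcd4, a membrane protein with a TLC domain.

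Each host had 1 dominant ring, named here by its deposited identifier. On the GRCm38 (mm10) build, the dominant ring of Rnf169 (mmu_circ_0001605) spanned chr7:99935162-99955540 on the minus strand and joined exon 4 of 6 back to exon 2, with a spliced length of 340 bases. That of Gigyf2 (mmu_circ_0000057) spanned chr1:87364104-87380008 on the plus strand and joined exon 8 of 29 back to exon 4, with 494 bases. That of Ttc39c (novel_circ_0005475) joined exon 6 of 14 to exon 2, with 817 bases. That of Tmem56 (novel_circ_0009041) spanned chr3:121228310-121235764 on the minus strand and joined exon 6 of 8 to exon 2, with 544 bases.

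The back-splice junctions of the main Rnf169 rings are printed first because 2 acceptors and 3 donors combine in them. Lower case is the 30 bases at the end of the donor exon and capitals are the 30 bases at the start of the acceptor exon, 5′ to 3′ on the strand of the gene, from the GENCODE M21 transcripts.
mmu_circ_0001605, exons 2 to 4: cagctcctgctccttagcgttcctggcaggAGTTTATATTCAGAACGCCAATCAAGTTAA
novel_circ_0013327, exons 3 to 5: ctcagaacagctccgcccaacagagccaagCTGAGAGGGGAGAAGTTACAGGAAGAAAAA
novel_circ_0013332, exons 2 to 3: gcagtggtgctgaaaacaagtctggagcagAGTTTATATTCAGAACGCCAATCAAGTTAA
novel_circ_0013330, exons 3 to 4: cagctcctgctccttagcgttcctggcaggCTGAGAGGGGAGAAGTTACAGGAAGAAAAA

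For Gigyf2 the dominant junction is shown beside the next most abundant ring, which keeps its acceptor and changes the donor, and beside a ring that keeps its donor and changes the acceptor. The last of these had 32 reads over 5 libraries and did not pass the filter on low counts used below.
mmu_circ_0000057, exons 4 to 8: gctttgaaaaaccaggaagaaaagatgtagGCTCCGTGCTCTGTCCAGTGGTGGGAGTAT
novel_circ_0007581, exons 4 to 6: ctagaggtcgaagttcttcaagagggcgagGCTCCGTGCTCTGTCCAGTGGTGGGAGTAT
novel_circ_0007587, exons 6 to 8: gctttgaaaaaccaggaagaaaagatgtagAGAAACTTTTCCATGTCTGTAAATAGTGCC

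For Tmem56 only the coding donor side of the junction is shown, because the acceptor exon starts in the 5′ UTR. The dominant ring and the next ring differ in this donor.
novel_circ_0009041, end of exon 6: gcaggactaactgcatactactttgtattg
novel_circ_0009048, end of exon 3: catcgacaagaagattgaatggaactcaag

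The dominant rings differed in what they hold of the coding sequence. The Rnf169 and Gigyf2 rings lay wholly in coding sequence (100% of bases) and did not hold the start codon. Coding sequence made up 98.0% of the Ttc39c ring and 80.5% of the Tmem56 ring, and both held the start codon of the host. Read from that codon, the Ttc39c ring gave 267 codons up to the junction and met a stop 6 bases past it, and the Tmem56 ring gave 146 codons and met a stop 33 bases past it. None of the 4 lengths was a multiple of 3. Of 9923 exonic rings placed on an annotated transcript (93.7% of 10591), 13.2% held the start codon of their host. Dominant rings of 3 of the 4 hosts began at exon 2, as did 29.3% of the placed rings. Of the 3902 placed rings with at least 5 reads in at least 3 libraries, 15.7% held the start codon and 33.8% began at exon 2.

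Introns on each side of the dominant rings were longer than the median of placed rings, which was 6528 bases before the ring and 4857 bases after it. The intron before the ring had 24431 bases in Rnf169, 9617 in Gigyf2, 41363 in Ttc39c and 27409 in Tmem56. The intron after it had 7969 bases in Rnf169, 23658 in Gigyf2, 21890 in Ttc39c and 16938 in Tmem56. On the scale of all placed rings, the intron before lay between the 61.0th percentile (Gigyf2) and the 92.9th (Ttc39c), and the intron after between the 65.5th (Rnf169) and the 90.1st (Gigyf2). Among the 3902 placed rings with at least 5 reads in at least 3 libraries, the medians were higher, at 8938.5 and 7057 bases. There the intron before lay between the 52.2nd percentile (Gigyf2) and the 90.8th (Ttc39c). The intron after lay between the 54.3rd (Rnf169) and the 85.8th (Gigyf2), so the lowest values were near the middle. The dominant Ttc39c ring lay at chr18:12684837-12698059 on the plus strand. Spliced length was not shifted in this way: the Rnf169 ring was at the 18.9th percentile and the Ttc39c ring at the 79.8th.

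Library depth bears on every value. Back-splice reads per library ranged from 69268 to 154449 in 8 libraries, while control 3 held 4362, which is 25.7-fold below the median of the others. Over 391 rings with a value in all libraries, the circular share was 6.14% in control 3 and 66.1% to 75.7% in the others. Levels below are back-splice reads per 1000000 back-splice reads of the library (CPM), which carry no length term, and results are given with and without control 3. Reads were not marked by molecular identifiers, so intervals cover counting error only.

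By mean CPM over all 9 libraries, the 4 dominant rings took the 1st (Rnf169, 21323), 3rd (Gigyf2, 12352), 4th (Ttc39c, 8642) and 8th (Tmem56, 7599) place among all rings. Between them came rings of Aass (13210), Rmdn2 (8502) and Nfix (8226) and an intergenic ring (7646). Together the 4 dominant rings held 4.85% to 5.32% of all back-splice reads in the 8 deep libraries and 4.13% in control 3. The dominant Rnf169 ring stood at 20026, 21243 and 13755 CPM in controls 1 to 3, at 21469, 24047 and 24080 CPM in the APAP libraries, and at 23662, 21755 and 21866 CPM in the dmPGE2+APAP libraries. It was the most abundant ring in 7 of the 8 deep libraries and came 2nd in control 1 and 4th in control 3. On this unscaled CPM every treated library lay above every control library, by little in the case of APAP 1 and control 2. On TMM-scaled CPM the groups overlapped: control 2 lay at 23805, above APAP 3 (22904) and dmPGE2+APAP 2 (23606).

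The dominant Gigyf2 ring stood at 12930, 13434 and 9858 CPM in control, 12819, 12965 and 12791 CPM in APAP, and 12752, 11968 and 11656 CPM in dmPGE2+APAP. The 3 APAP libraries lay close together and between the extremes of the controls, and the lowest library of all was control 3. The dominant Ttc39c ring stood at 7938, 9210 and 9399 CPM in control, 7969, 8451 and 8431 CPM in APAP, and 8438, 8183 and 9757 CPM in dmPGE2+APAP, and all 3 groups overlapped.

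The dominant Tmem56 ring stood at 8158, 9341 and 8253 CPM in control, 7325, 7072 and 7074 CPM in APAP, and 7260, 6569 and 7344 CPM in dmPGE2+APAP. On this unscaled CPM all 3 controls lay above all 6 treated libraries, and the treated groups overlapped. On TMM-scaled CPM, the scaling of the tests below, control 3 lay at 3952, under every treated library (6729 to 8420), and controls 1 and 2 at 9250 and 10467, above them. In bulk tissue, fewer cells that make a ring and less of it per cell cannot be told apart.

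**Figure D1:**
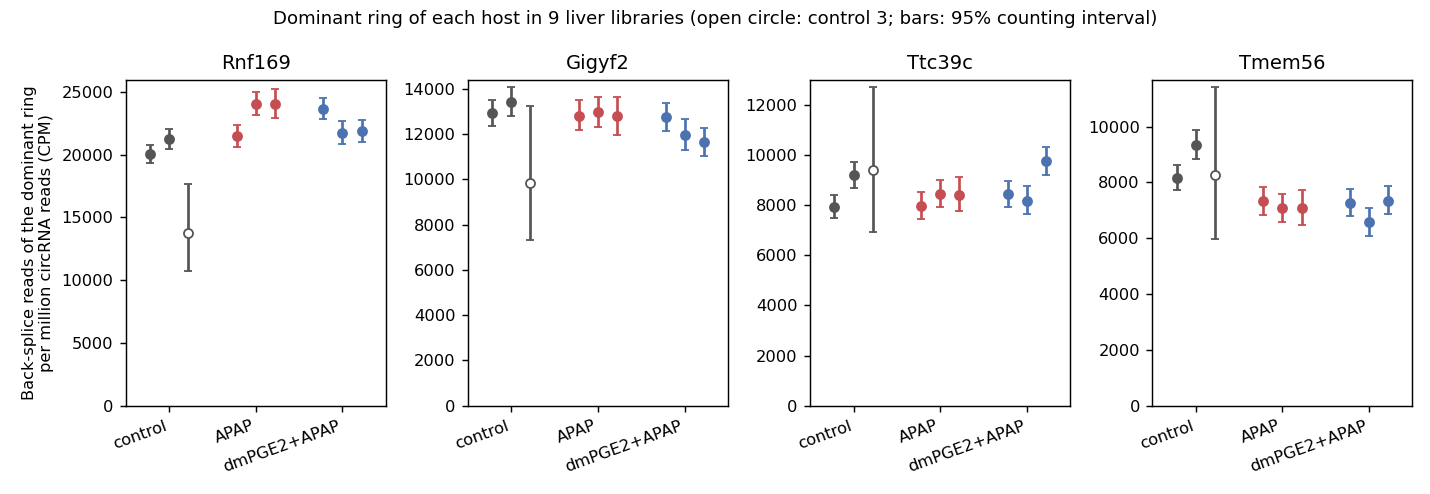
Level of the dominant ring of each host in each library, in CPM on a linear axis from 0, by group (replicates 1 to 3 from left to right). Points are single libraries, bars are 95% counting intervals, and the open circle is control 3; on this unscaled CPM the Tmem56 controls (8158 to 9341) lie above the treated libraries (6569 to 7344).

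Differences between groups were tested with the quasi-likelihood F test of edgeR, adjusted by Benjamini-Hochberg over all 4331 rings with at least 5 reads in at least 3 libraries. Of the 41 rings, 21 passed this filter and 20 did not. None of the 21 reached an adjusted p under 0.05 in any comparison. Over all rings tested, the share called was 0.139% for APAP against control, 0.0693% for dmPGE2+APAP against APAP and 0.115% for dmPGE2+APAP against control, so that hardly any ring passed and 0 of 21 is not a result about these rings. Unadjusted p was under 0.05 for 2, 2 and 1 of the 21 in that order, for 1, 1 and 0 with DESeq2, and for 2, 0 and 1 with limma-voom, and neither of these tools called a member. Without control 3 the share called was 0.231%, 0.0693% and 0.0924%, again with 0 of 21.

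No fold change of a dominant ring passed the test, and values are given with their standard error (SE). For APAP against control, the log2 fold change was 0.46 ± 0.29 (SE, edgeR adjusted p = 0.823) for Rnf169, 0.23 ± 0.30 (adjusted p = 1) for Gigyf2, 0.13 ± 0.31 (adjusted p = 1) for Ttc39c and -0.07 ± 0.31 (adjusted p = 1) for Tmem56. Leaving out control 3 narrowed the SE from between 0.28 and 0.31 to between 0.13 and 0.17, and the same values became 0.08 ± 0.14, -0.12 ± 0.16, -0.13 ± 0.17 and -0.37 ± 0.17 (SE, smallest adjusted p = 0.841, edgeR). The sign thus turned for Gigyf2 and Ttc39c with 1 library. The median over all 4331 rings was 0.16 with all libraries, 0.10 with all libraries and no TMM scaling, and -0.06 without control 3. The TMM factor was 2.09 in control 3 and 0.87 to 1.05 in the other libraries. For dmPGE2+APAP against APAP, where the 6 libraries are all deep, the log2 fold change was 0.02 ± 0.28 for Rnf169, -0.02 ± 0.30 for Gigyf2, 0.15 ± 0.31 for Ttc39c and 0.04 ± 0.31 for Tmem56 (SE, adjusted p = 1.00 for each in edgeR). The SE comes from a fit that holds control 3. Without control 3 these values were 0.004 ± 0.13, -0.04 ± 0.14, 0.14 ± 0.15 and 0.03 ± 0.15 (SE, edgeR). For dmPGE2+APAP against control, with all 9 libraries, the log2 fold change was 0.48 ± 0.29 (SE, adjusted p = 0.960) for Rnf169 and 0.21 ± 0.30, 0.28 ± 0.31 and -0.03 ± 0.31 for Gigyf2, Ttc39c and Tmem56 (adjusted p = 1 for each, edgeR). Leaving out control 3 gave 0.08 ± 0.14, -0.16 ± 0.16, 0.002 ± 0.17 and -0.34 ± 0.17 in the same order (SE, edgeR), so the sign turned for Gigyf2. Both comparisons with control share the control libraries.

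For Tmem56 the values without control 3 were the farthest from 0. The log2 fold change was -0.37 ± 0.17 for APAP against control (SE, unadjusted p = 0.0323, edgeR, adjusted p = 0.841) and -0.34 ± 0.17 for dmPGE2+APAP against control (SE, unadjusted p = 0.0467, adjusted p = 1), with every treated library below both deep controls.

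Back-splice reads summed over all rings of a host gave the same picture. Of the 4 hosts, 0 passed in any comparison, where 0.339%, 0.127% and 0.17% of the 2358 host genes tested were called (0.212%, 0.17% and 0.127% without control 3). The Rnf169 sum had a log2 fold change of 0.39 ± 0.17 for APAP against control (SE, unadjusted p = 0.0233, edgeR, adjusted p = 0.893) and 0.38 ± 0.17 for dmPGE2+APAP against control (SE, unadjusted p = 0.0273, adjusted p = 1), and 0.10 ± 0.09 and 0.08 ± 0.09 without control 3. It was the only host sum of the 4 under an unadjusted p of 0.05 in this fit, and none of the 4 was under it with DESeq2. Other fits had the Tmem56 sum there in place of Rnf169. For APAP against control and dmPGE2+APAP against control, the Tmem56 sum had log2 fold changes of -0.30 and -0.27 with limma-voom (unadjusted p = 0.0152 and 0.0181, adjusted p = 0.553 and 0.721). In edgeR without control 3 these were -0.33 ± 0.12 and -0.31 ± 0.12 (SE, unadjusted p = 0.0102 and 0.0148, adjusted p = 0.685 and 1).

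Ratios between the rings of a library do not depend on how libraries are scaled. The Rnf169 to Tmem56 ratio of dominant rings was 2.45 and 2.27 in controls 1 and 2, 2.93, 3.40 and 3.40 in APAP, and 3.26, 3.31 and 2.98 in dmPGE2+APAP, so both deep controls were below all 6 treated libraries. In control 3 it was 1.67, with a 95% counting interval of 1.11 to 2.51. The Rnf169 to Gigyf2 ratio was 1.55 and 1.58 in the deep controls and 1.67 to 1.88 in the treated libraries. These ratios were read after the levels were seen and carry no test.

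Steadiness was read from the coefficient of variation (CV) of CPM over the 8 deep libraries, whatever their group. It was 4.53% for Gigyf2, 6.69% for Rnf169, 7.37% for Ttc39c and 11.4% for Tmem56. Counting error alone would give 2.71%, 2.03%, 3.30% and 3.55%. Among 90 rings with at least 100 reads in each of the 8 libraries the median CV was 14.5%, and the 4 rings took the 1st, 3rd, 5th and 28th lowest place in the order above. Gigyf2 also had the lowest CV of all 1487 rings with reads in each of the 8 libraries (median 37.7%). High rings have little counting error, and the median of the 90 rings had 6.58%, so these places describe the rings at their depth. With TMM-scaled CPM over the same 8 libraries the CV was 7.59% for Gigyf2, 6.26% for Rnf169, 9.34% for Ttc39c and 14.3% for Tmem56 (median of the 90 rings 14.3%), and Rnf169 rather than Gigyf2 had the lowest of the 4. With all 9 libraries unscaled CPM gave 8.73%, 14.8%, 7.57% and 11.1% in the same order (median 24.0%). With all 9 libraries and TMM scaling the CV was 24.97%, 27.2%, 20.6% and 23.3%, near the median of 24.8%, with Gigyf2 and Rnf169 above it. The low spread of the 4 rings thus held on unscaled CPM, with or without control 3. On TMM-scaled values it held over the 8 deep libraries for Gigyf2, Rnf169 and Ttc39c, while Tmem56 lay at the median. It was lost on TMM-scaled values of all 9 libraries. On unscaled CPM and without control 3, the highest of the 8 deep libraries exceeded the lowest 1.15-fold for Gigyf2, 1.20-fold for Rnf169, 1.23-fold for Ttc39c and 1.42-fold for Tmem56.

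**Figure D2:**
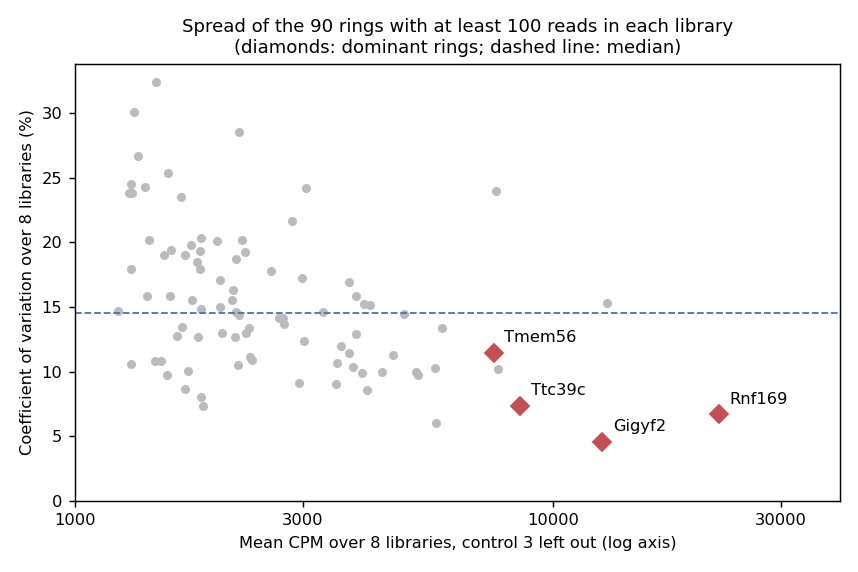
Coefficient of variation of CPM over 8 libraries (percent, control 3 left out) against mean CPM on a log axis for the 90 rings with at least 100 reads in each library. The dashed line is the median (14.5%), and all 4 dominant rings (diamonds, 4.53% to 11.4%) lie below it.

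The order of the dominant rings was not fixed in every place. Rnf169 exceeded Gigyf2 in all 9 libraries, by 1.55-fold to 1.88-fold in the deep libraries and 1.40-fold in control 3 (counting interval 0.946 to 2.06). Gigyf2 exceeded Ttc39c by 1.19-fold to 1.63-fold in the deep libraries. Ttc39c and Tmem56 were neighbours whose order changed: their ratio was 0.973 and 0.986 in controls 1 and 2 and 1.09 to 1.33 in the treated libraries.

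Rings with the most similar course over the 8 deep libraries, by Pearson's r of log2 TMM-scaled CPM among 1486 rings with reads in each and given as a description, were those of Man1a (r = 0.912), Gatad2b (0.887) and Bach1 (0.886) for Rnf169. For Gigyf2 they were rings of Sp3 (0.962), of the joint host Gm28539 and Hira (0.953) and of Dennd1b (0.937). For Ttc39c they were rings of Slc16a10 (0.958), Vps45 (0.947) and Svil (0.892), and for Tmem56 rings of Cfdp1 (0.929), Slco1b2 (0.926) and the joint host Foxp1 and Gm20696 (0.926). Each r is among the highest of 1486 over only 8 libraries, so a high value is in part built into the choice, and none was tested. Man1a trims N-glycans in the Golgi, Sp3 is a zinc finger transcription factor, Slc16a10 carries aromatic amino acids and Slco1b2 organic anions into hepatocytes. Among the dominant rings themselves, r was 0.825 between Gigyf2 and Tmem56 and -0.014 between Rnf169 and Tmem56, and these points share their libraries and scaling factors.

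Of 49064 back-splice reads of the 4 hosts, 46336 (94.4%) belonged to the 4 dominant rings and 2728 to the other 37. The dominant ring held 96.4% of the reads of Rnf169, 95.2% of Gigyf2, 92.3% of Ttc39c and 90.3% of Tmem56. It exceeded the next ring of its host 40.5-fold in Rnf169, 55.2-fold in Gigyf2, 19.4-fold in Ttc39c and 10.8-fold in Tmem56. Over 514 hosts with at least 2 rings and 20 reads in each deep library, the median share of the dominant ring was 67.4% (quartiles 46.5% and 86.6%), and 104 hosts exceeded 90%. Since the hosts were chosen for the level of 1 ring each, a high share is in part built into the choice.

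**Figure D3:**
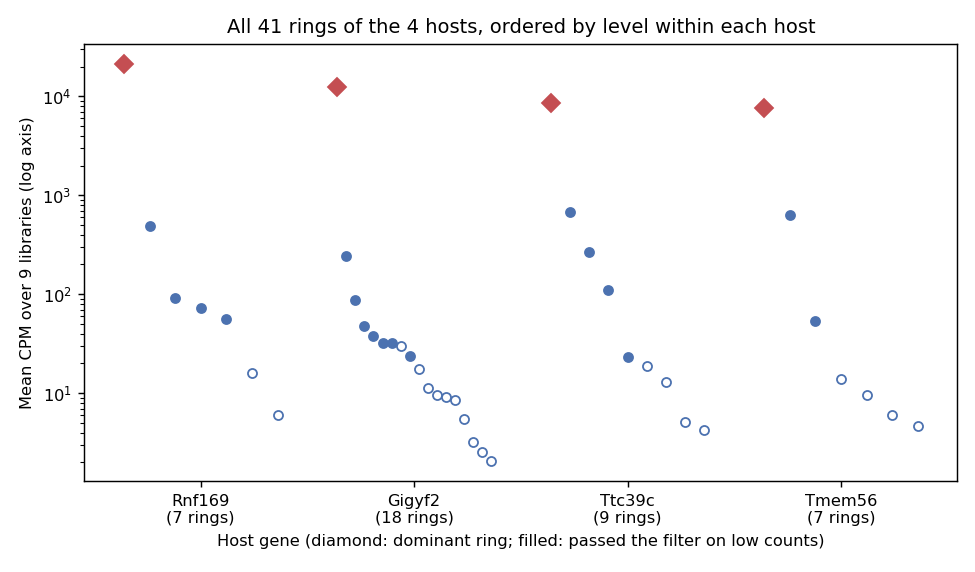
Mean CPM over 9 libraries (log axis) of all 41 rings, by host and in falling order. Diamonds are the dominant rings, filled symbols are the 21 rings that passed the filter on low counts, and in each host the dominant ring stands more than 10-fold above the next.

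Most minor rings of Rnf169 and Tmem56 reused a splice site of the dominant ring, and most of those of Gigyf2 and Ttc39c did not. Of the 37, 15 used the acceptor of the dominant ring, 6 its donor and 16 neither, and 14 lay within its span. Neither site was used by 1 of 6 in Rnf169, 10 of 17 in Gigyf2, 5 of 8 in Ttc39c and 0 of 6 in Tmem56. The share over other hosts was not computed. Only 6 of the 41 rings had reads in all 9 libraries, and 13 had reads in 1 library. The table lists no count of 1 (the smallest count above 0 is 2), which leaves unknown whether single reads were dropped before deposit.

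In Rnf169 the next ring joined exon 5 back to exon 3 (novel_circ_0013327), shared neither site with the dominant ring and had 495 reads. It stood at 492, 631 and 0 CPM in control, 543, 530 and 664 CPM in APAP, and 448, 353 and 740 CPM in dmPGE2+APAP, and the groups overlapped. A ring of exons 2 to 3 (novel_circ_0013332), with the dominant acceptor, had 99 reads over 7 libraries, and novel_circ_0013326, with the same acceptor but not placed on a transcript, had 76 reads over 7. With the dominant donor, exons 3 to 4 (novel_circ_0013330) had 65 reads over 6 libraries: 19 and 18 in controls 1 and 2, 0 in control 3, 13, 2 and 0 in APAP, and 6, 0 and 7 in dmPGE2+APAP. All 4 combinations of the acceptors of exons 2 and 3 with the donors of exons 4 and 5 were found, the last being exons 2 to 5 (novel_circ_0013328) with 17 reads in 2 dmPGE2+APAP libraries, which did not pass the filter and is named after its values were seen.

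Gigyf2 had the most rings, 17 of them minor. The acceptor of exon 4 was used by 6 minor rings besides the dominant one, of which the ring of exons 4 to 6 (novel_circ_0007581) had 209 reads and was seen in all 9 libraries. Controls 1 to 3 held 56, 19 and 2 of its reads, the APAP libraries 31, 13 and 10, and the dmPGE2+APAP libraries 34, 13 and 31, and the groups overlapped. On the same acceptor, exons 4 to 9 (novel_circ_0007585) had 48 reads, and 2 rings named after their values were seen, exons 4 to 5 (novel_circ_0007580) and 4 to 7 (novel_circ_0007582), had 25 and 36. A separate set of rings lay downstream of the dominant ring. Exons 9 to 14 (novel_circ_0007589) had 90 reads in 7 libraries. Exons 19 to 20 (novel_circ_0007596) had 12 and 12 reads in controls 1 and 2, 0 in control 3, 0 in every APAP library, and 9, 0 and 11 in dmPGE2+APAP (edgeR, unadjusted p = 0.0357 for APAP against control and 0.0390 for dmPGE2+APAP against APAP, adjusted p = 0.799 and 1.00). Exons 15 to 21 (novel_circ_0007595) had 8 and 12 reads in those controls, 0 in control 3, 10, 6 and 0 in APAP, and 0 in every dmPGE2+APAP library (edgeR, unadjusted p = 0.0470 against APAP and 0.0444 against control, adjusted p = 1.00 and 0.960). Both of these rings passed the filter only through the groups in which they had reads. Their unadjusted p-values against the group at 0 are therefore no support for a difference.

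In Ttc39c the next ring joined exon 4 back to exon 2 (novel_circ_0005472) and had 401 reads. Controls 1 to 3 held 87, 36 and 12 of them, the APAP libraries 55, 33 and 24, and the dmPGE2+APAP libraries 39, 29 and 86. In control 3 those 12 reads equalled 2751 CPM, against 277 to 749 CPM in the deep libraries. The ring of exons 9 to 10 (novel_circ_0005488), outside the dominant span, also stood apart there, with 8 reads or 1834 CPM against 0 to 104.5 CPM elsewhere. Exons 5 to 7 (novel_circ_0005483) had 109 reads in 7 libraries, with 0 in control 3 and APAP 1, and exons 5 to 6 (novel_circ_0005481), on the dominant donor, had 23 reads in 3 libraries.

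Tmem56 had the highest minor share. Its ring of exons 2 to 3 (novel_circ_0009048) had 645 reads, 8.40% of the host. It stood at 997, 377 and 0 CPM in control, 819, 603 and 664 CPM in APAP, and 581, 1039 and 592 CPM in dmPGE2+APAP, and the groups overlapped. The other minor ring that passed the filter (novel_circ_0009043) had 58 reads in 4 libraries and used the dominant donor.

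**Figure D4:**
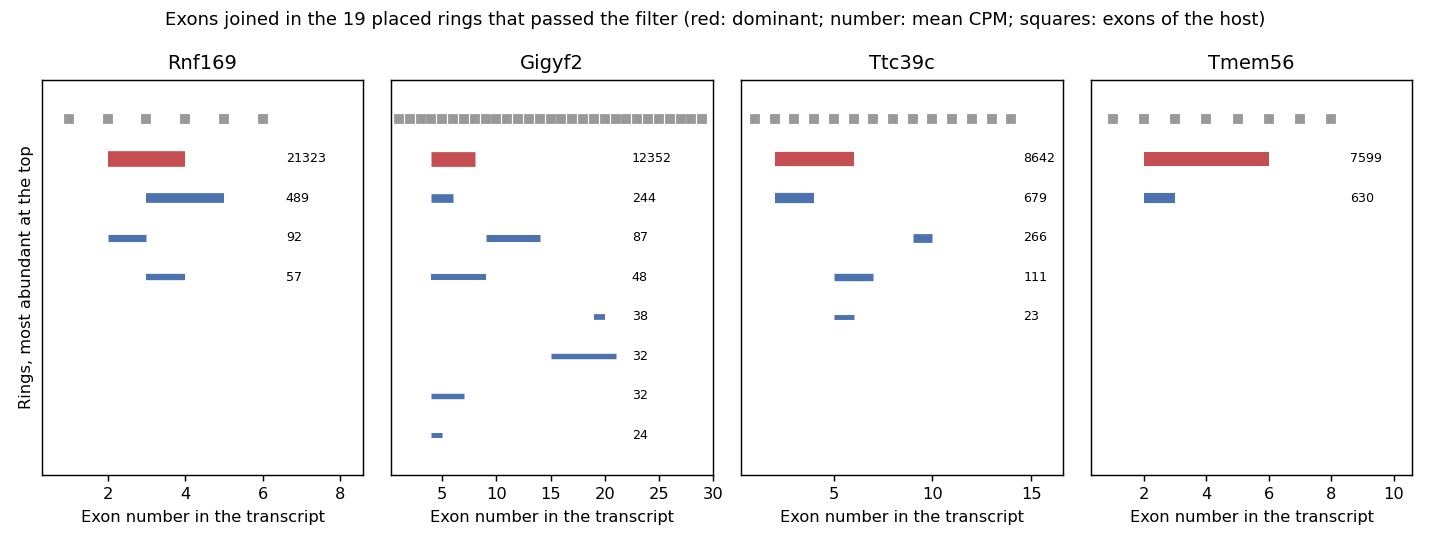
Exons joined in the 19 rings that passed the filter and could be placed on a transcript, against exon number in the host transcript. Bars run from the acceptor to the donor exon, red marks the dominant ring, numbers give the mean CPM over 9 libraries, and grey squares are the exons of the host; 2 further rings that passed could not be placed.

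The 17 minor rings that passed the filter had log2 fold changes between -5.74 and 5.59 with SEs between 0.43 and 3.01, and adjusted p between 0.799 and 1 in edgeR. The widest of these come from rings with a whole group at 0 and depend on the prior count.

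The share of the dominant ring in the reads of its host was compared between groups over the 8 deep libraries by an exact permutation test of all 560 arrangements, adjusted over 514 hosts. Of these hosts 0 passed (0%), with 23 at an unadjusted p under 0.05, none of them among the 4. For Rnf169 the control libraries averaged 95.8% ± 0.342 (SD, n = 2), the APAP libraries 96.8% ± 0.577 (n = 3) and the dmPGE2+APAP libraries 96.4% ± 1.05 (n = 3), with an exact permutation p of 0.454. In Gigyf2 it was 94.5% ± 1.23, 95.8% ± 1.37 and 95.4% ± 2.02 (exact permutation p = 0.689). In Ttc39c it was 92.4% ± 1.08, 92.5% ± 0.442 and 92.8% ± 1.89 (exact permutation p = 0.918). In Tmem56 it was 91.2% ± 5.48, 90.6% ± 0.752 and 89.2% ± 3.74 (exact permutation p = 0.786). The smallest p this design allows is 0.00357, and the test, on the spread of the 3 group means, has no direction. Adjusted over 514 hosts, that p passes only if many hosts share it, and the smallest adjusted p was 0.895. The 0 calls were thus nearly fixed by the design and are no result about the hosts.

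Counting intervals of single deep libraries lay apart in all 4 hosts, most widely in Tmem56. There the share was 87.3% in control 1 (95% Wilson interval 85.5% to 88.9%) and 95.1% in control 2 (93.7% to 96.1%). The lowest of the deep libraries was dmPGE2+APAP 2 with 84.9% (82.2% to 87.2%). In the other hosts dmPGE2+APAP 2 was the highest of the deep libraries. Its interval in Gigyf2 was 96.6% to 98.3%, against 92.5% to 94.6% in control 1, the lowest. In Rnf169 it was 96.7% to 98.0%, and the lowest, dmPGE2+APAP 3, had 94.5% to 96.1%. For Ttc39c the same libraries had 92.5% to 95.7% and 88.9% to 92.2%. In control 3 the Ttc39c share was 67.2% (54.7% to 77.7%) on 41 dominant and 20 other reads, against 90.7% to 94.3% in the deep libraries. With control 3 in, the Ttc39c control mean was 84.0% ± 14.6 (SD, n = 3, exact permutation p = 0.393).

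Circular share sets the ring against other RNA at the same splice sites: 2 times the back-splice reads over the same plus the non-junction reads, which pass the site without the back-splice. Of the 41 rings, 21 had a usable list of non-junction reads and 20 had a list that had been turned into a single number, among them the dominant rings of Rnf169, Ttc39c and Tmem56. The dominant Gigyf2 ring averaged a circular share of 97.3% ± 0.517 over the deep controls (SD, n = 2), 96.3% ± 0.462 over the APAP libraries (n = 3) and 96.8% ± 1.29 over the dmPGE2+APAP libraries (n = 3). Its mean over the 8 libraries, 96.7%, was the 6th highest of 1125 rings with values in all 8, whose median was 56.6%. Back-splice reads enter this share, so a high place is in part built into the choice of the host. Rings whose list became a single number, among them the other 3 dominant rings, are not in that set. Such lists were told by their groups of 3 digits, so this loss depends on the size of the non-junction reads. The place and the median therefore hold for the rings left and not for all rings.

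Non-junction reads at the Gigyf2 sites numbered 95 and 110 in controls 1 and 2, 105, 97 and 78 in APAP, and 101, 113 and 54 in dmPGE2+APAP, beside 886 to 1997 back-splice reads. In control 3 they numbered 79, within that range, beside 43 back-splice reads. The circular share there was 52.1% (95% Wilson interval carried over from the share of back-splice reads, 42.9% to 61.2%), against 6.14% over the 391 rings in that library.

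The log2 ratio of circular to non-junction reads of this ring differed by -0.49 ± 0.57 for APAP against control (SE, limma, adjusted p = 0.783), by 0.28 ± 0.51 for dmPGE2+APAP against APAP (adjusted p = 0.995) and by -0.21 ± 0.57 for dmPGE2+APAP against control (adjusted p = 0.980). Over the 1125 rings limma called 0.0889%, 0% and 0% in these comparisons, with 122, 68 and 101 rings at an unadjusted p under 0.05, so 0 calls among the 2 members tested is no result about them. An exact permutation test over the 3 groups called 0 of the 1125, but its smallest p can hardly pass adjustment over that many rings, so this adds no support.

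The ring of exons 4 to 6 in Gigyf2 (novel_circ_0007581) had a circular share of 3.26% to 9.86% in the deep libraries, on 546 to 1071 non-junction reads. Its donor lies inside the dominant ring, where a read from exon 6 into exon 7 may come from that ring or from linear RNA, and the value cannot tell these apart. The Rnf169 ring novel_circ_0013326, which shares the dominant acceptor, had a circular share of 12.4% to 24.8% in its 7 libraries.

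For Rnf169 the number left of the list had 27 digits for 9 libraries. Read as 3 digits per library, a reading chosen after the values were seen, the first 5 values that survive give 204, 221 and 248 non-junction reads in APAP and 300 and 152 in controls 1 and 2. The circular share of the dominant ring would then be 95.8%, 96.0% and 93.1% in APAP and 95.4% and 97.3% in control. In the 4 of these libraries where novel_circ_0013326 had a list, these values were 1.92-fold to 2.27-fold the non-junction reads of that ring. The numbers left for Ttc39c and Tmem56 have 28 digits each and can be split in more than 1 way, and no share is given for them.

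**Figure D5:**
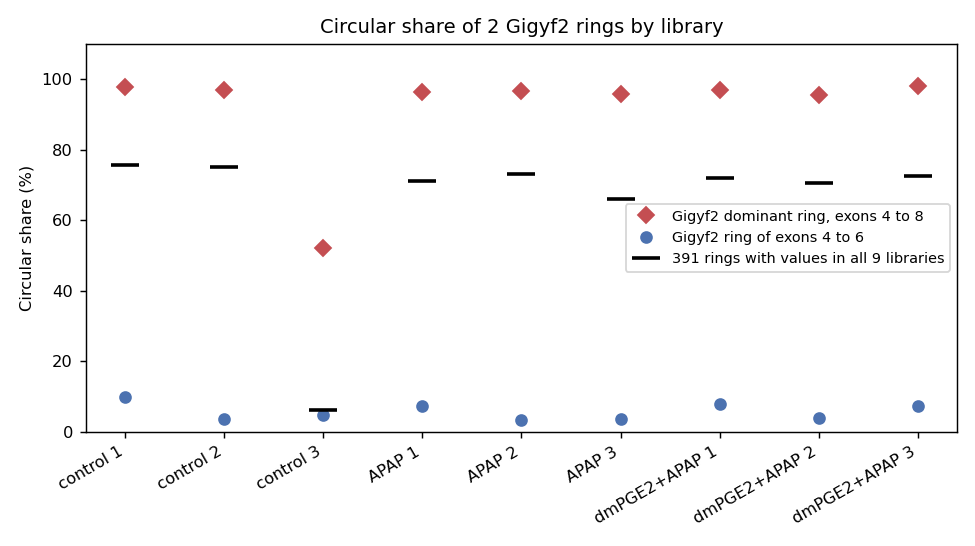
Circular share (percent) by library of the dominant Gigyf2 ring (diamonds) and of its ring of exons 4 to 6 (circles), with the share over 391 rings as a bar. The dominant ring lies between 95.5% and 98.0% in the 8 deep libraries and at 52.1% in control 3.

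Other genes of the same pathways or families were read as host sums from lists. Of 19 genes of the RNF168 pathway, which marks histone H2A at DNA breaks, 12 had rings and 8 were tested, and 0 of 8 passed in either direction in each of the 3 comparisons. With 0.339%, 0.127% and 0.17% of all hosts called, such a count, here and in the lists below, is no result about the list. Next to Rnf169 (22054 CPM over all its rings) the highest was Uimc1, a ubiquitin-binding partner of BRCA1, with 446 CPM, and Rnf168 itself, named besides the rule, had 64.4 CPM. The median log2 fold change of the 8 was -0.18 for APAP against control, where the median of all 2358 hosts was 0.13. Of 20 genes of GIGYF and 4EHP repression and of ribosome stalling, 13 had rings and 12 were tested, and 0 of 12 passed, with a median of 0.17. Next to Gigyf2 (12958 CPM) the highest was Nemf, which recruits the ligase for stalled chains, with 987 CPM, and the paralogue Gigyf1, also named besides the rule, had 210 CPM from 1 ring. Of 4 genes of the Ttc39 family only Ttc39c was tested and Ttc39b, at 22.0 CPM, was not. Of 16 names listed for genes with a TLC domain, which hold Tmem56 also under its other name Tlcd4, Tmem56 and the ceramide synthase Cers6 had rings. Cers6 stood at 97.9 CPM, and neither of these hosts passed.

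Marker genes of liver cell types gave the background of the tissue. Of 14 hepatocyte markers 11 had rings and 9 were tested, 0 of which passed. Cps1, an enzyme of the urea cycle, led with 874 CPM before the cytochrome Cyp1a2 with 463 CPM. Their summed level was 1754 to 2122 CPM in APAP, 1998 to 2422 CPM in dmPGE2+APAP and up to 2059 CPM in control, and it was 0 in control 3. Of 8 endothelial markers 5 had rings and all 5 were tested, led by Mrc1 with 1193 CPM before Stab2 with 92.8 CPM. Their summed level was 917 to 1606 CPM in control, 780 to 1730 CPM in APAP and 1298 to 1594 CPM in dmPGE2+APAP, and the groups overlapped. Their median log2 fold change was -0.78 for APAP against control, 0.63 for dmPGE2+APAP against APAP and 0.02 for dmPGE2+APAP against control, where all hosts had 0.13, 0.04 and 0.19. The first 2 medians were the values of Ptprb (33.1 CPM), -0.78 ± 2.35 and 0.63 ± 2.32 (SE, edgeR). Mrc1, the highest of the 5, had 0.07 ± 0.36 and 0.10 ± 0.34. Pecam1 and Stab1 lay on the side of Ptprb in both comparisons. Stab2 lay on the other side, at 0.10 ± 1.34 and -1.69 ± 1.36. These medians thus rest on low counts. For the hepatocyte markers the medians were 0.11, 0.39 and 0.45. Of 8 Kupffer cell markers only Adgre1 had rings (636 CPM), of 6 cholangiocyte markers only Pkhd1 (230 CPM), and of 7 neutrophil and 7 stellate cell markers none. No marker passed in any comparison, again beside 0.339%, 0.127% and 0.17% of all hosts. Whether cell composition has a share in the levels of the 4 dominant rings was not tested.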

How the data were processed

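Members and gene lists were chosen with earlier results of these data known. Each library took 1 µg of liver RNA, freed of ribosomal RNA and marked for strand, per the labels' protocols. HISAT2, GRCm38 and mm10 are named in the submitters' processing notes; the caller of rings is not given in the sources used here. The deposited values used are the authors' back-splice read counts per ring and library. The lists of non-junction reads were deposited beside them, and 1753 of the 11312 lists held a single number and were not used, apart from 1 reading stated as such. The 9 columns of normalized values were not used. Counts were tested with edgeR 4.0.16 (TMM scaling, group means, 9 libraries, at least 5 reads in at least 3 libraries, adjusted p under 0.05), and circular shares with limma 3.58.1 (pseudocount 0.5, 8 libraries). DESeq2 1.42.0 and limma-voom were alternatives. The tests were tried on simulated data. Every dominant ring, at most 5 minor rings per host that passed the filter, the 3 most similar rings and the 2 highest hosts of a list were to be named. Exons and sequences came from GENCODE M21 transcripts. Replicate numbers did not pair libraries.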

Additional observations from a re-analysis of the deposited data

How the results depend on the processing

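None of the member rings tested and none of the 4 host sums was called under any of the 15 alternatives to the edgeR fit. With the filter at most 21 of the 41 rings were tested, and the other 20 entered only the fit without it. Few features were called at all, so this is no result about the members. The smallest adjusted p of a dominant ring or host sum was 0.225 (Rnf169 sum, 1 library left out). Counts over all features, in the order APAP against control, dmPGE2+APAP against APAP, dmPGE2+APAP against control, were 6, 3 and 5 rings and 8, 3 and 4 hosts. Rings called became 12 (the first comparison) and 10 (the third) without TMM scaling, 9 (the second) and 12 (the third) without the filter, 14, 0 and 1 with DESeq2, and 0 (the second) and 2 (the third) with limma-voom. Hosts called became 13, 1 and 1 with DESeq2, 2, 0 and 1 with limma-voom, and 6 (the second) without the filter. With a replicate block, rings called were 5 (the second) and 3 (the third) and hosts called 5 (the second), and no member was called; correlations of same-numbered libraries lay between -0.036 and 0.023, so the numbers are only names. Leaving out 1 library gave 3 to 10, 1 to 3 and 4 to 8 rings, with 10 without control 3, and 4 to 8, 0 to 6 and 2 to 6 hosts, with 0 without APAP 1.

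The circular share had 1 ring called for APAP against control. It had 0 with all 9 libraries, with a replicate block, and without either deep control, any APAP library or dmPGE2+APAP 2. The exact permutation test over the 3 groups also gave 0, which its smallest p nearly fixes. Leaving out a library gave 0 to 1 ring in any comparison and 0 to 1 for dmPGE2+APAP against control. With control 3 the log2 ratio of the dominant Gigyf2 ring turned to 1.20 and 1.48 against control. The CV of the dominant rings became 14.8% for Rnf169 and 8.73% for Gigyf2 with all 9 libraries, and 7.59% for Gigyf2 with TMM scaling. With both changes together, an alternative chosen after seeing the data, it was 27.2% for Rnf169, 24.97% for Gigyf2, 20.6% for Ttc39c and 23.3% for Tmem56, beside a median of 24.8% for the 90 rings, so the low spread was lost.

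No fold change below passed a test, and 47 of 360 alternatives of the 24 fold changes changed sign, 19 of them apart from left-out libraries, with no value beyond 0.197 after the change; the cause was not tested. For dmPGE2+APAP against APAP the dominant ring of Rnf169 gave -0.034 with RLE scaling, -0.049 without TMM and -0.034 with DESeq2, that of Tmem56 -0.0077, -0.020 and -0.0078, and the Tmem56 sum -0.0176 with RLE and -0.0178 with DESeq2. For APAP against control, limma-voom gave -0.043 for the Gigyf2 ring, -0.081 for the Gigyf2 sum and -0.064 for the Ttc39c ring, which was -0.088 without TMM. For dmPGE2+APAP against control, values without TMM were -0.010 (Gigyf2 ring), -0.066 (Gigyf2 sum), -0.0018 (Ttc39c ring) and -0.19 (Ttc39c sum), limma-voom gave -0.078 (Gigyf2 ring) and -0.13 (Gigyf2 sum), and the Tmem56 ring was 0.054 with a replicate block.

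Leaving out each library in turn, the rings ranged, in the order of comparisons above, from 0.080 to 0.72, -0.046 to 0.077 and 0.085 to 0.73 (Rnf169), -0.12 to 0.46, -0.11 to 0.0285 and -0.16 to 0.43 (Gigyf2), -0.13 to 0.34, 0.068 to 0.20 and 0.002 to 0.49 (Ttc39c), and -0.37 to 0.16, -0.046 to 0.11 and -0.34 to 0.20 (Tmem56). Host sums ranged from 0.10 to 0.61, -0.077 to 0.031 and 0.077 to 0.60 (Rnf169), -0.11 to 0.32, -0.11 to -0.0091 and -0.17 to 0.26 (Gigyf2), -0.10 to 0.0082, 0.011 to 0.19 and -0.057 to 0.15 (Ttc39c), and -0.33 to 0.0235, -0.014 to 0.061 and -0.31 to 0.058 (Tmem56). The Gigyf2 circular ratio ranged from -0.69 to -0.29, -0.041 to 0.57 and -0.53 to 0.085. Control 3, with 36 to 60 reads per dominant ring, limits every comparison with control, and most minor rings hold too few reads for a fold change.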
